A study of Sus scrofa with 6 samples.

Results

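The cluster of miR-424, miR-503, miR-542 and the miR-450 group is a set of microRNA (miRNA) genes that lie side by side on the X chromosome. Members were all mature sequences, from either arm of the hairpin, that the study's supplementary list of known miRNAs gives 1 of these names and that had 20 or more reads over the 6 libraries. Of the 239 known mature sequences (533 sequences in all with the predicted candidates), 7 met this rule: miR-424-5p, miR-424-3p, miR-450a, miR-450b-5p, miR-450c-5p, miR-542-3p and miR-542-5p. Small RNA was sequenced from the jejunum of crossbred barrows (Duroc x Yorkshire x Landrace) to find miRNAs that differ between weaned and suckling piglets. Libraries W1, W4 and W7 came from piglets killed 1, 4 or 7 d after weaning at 25 d of age, and libraries S1, S4 and S7 from piglets killed on the same days that had stayed with the sow. Each library was 1 pool of RNA from 4 piglets, in the weaning group 1 from each of 4 litters. The suckling piglets were littermates of the weaned ones. So a weaning library and the suckling library of its day had no replicate, and the 3 libraries of a group differed in age and, in the weaning group, in time since weaning.

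miRNAs are short RNAs that pair through their seed, bases 2 to 8 from the 5′ end, with sites in messenger RNAs and repress them. miR-424-5p and miR-503 belong to the miR-15/16 family, whose best known targets in human and mouse cells are cyclins and other drivers of the cell cycle. In human cells miR-424 and miR-503 are made from 1 long host transcript, miR-424 is known for its part in monocyte differentiation, and miR-542-3p is known to repress survivin, a protein that protects dividing cells from death. The jejunal lining is renewed without pause from dividing crypt cells, so growth-regulating miRNAs have been of interest there.

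The mature sequences are shown because they sort the members by seed and show which members reads can hardly tell apart. They are given 5′ to 3′ as deposited, with the seed in capitals.
miR-424-5p: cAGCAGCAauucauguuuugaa
miR-424-3p: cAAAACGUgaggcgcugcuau
miR-450a: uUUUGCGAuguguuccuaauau
miR-450c-5p: uUUUGCGAuguguuccuaauac
miR-450b-5p: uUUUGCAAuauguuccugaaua
miR-542-3p: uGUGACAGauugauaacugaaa
miR-542-5p: uCGGGGAUcaucaugucacga
miR-16: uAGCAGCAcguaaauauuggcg
miR-497: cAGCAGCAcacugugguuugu
The last pair, miR-16 and miR-497, are not members and stand for the 5 other miRNAs of the libraries with the seed of miR-424-5p (miR-15a, miR-15b, miR-16, miR-195 and miR-497). miR-450a and miR-450c-5p had the same seed and differed by 1 base at the 3′ end, U22C, with positions counted from 1 at the 5′ end of miR-450a. miR-450b-5p differed from miR-450a at 6 positions, and 1 of them, G7A, lay in the seed. The seeds of miR-424-3p, miR-542-3p and miR-542-5p occurred in no other member.

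A read that lacks its last base fits miR-450a and miR-450c-5p alike, and the sources used here do not say how the counting divided such reads. The ratio of miR-450a to miR-450c-5p reads lay between 0.859 and 0.947 in all 6 libraries. The values of this pair are therefore uncertain as separate values, and they are not independent of each other. In the RefSeq gene order of the Sscrofa11.1 assembly, 4 precursors of the cluster followed each other on chromosome X between HPRT1 and PLAC1, in the order MIR450B, MIR450A, MIR450C, MIR542. The precursors of miR-424 and miR-503 were not matched in RefSeq, so their place in this order is not shown here.

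The study's list held 3 more names of the cluster, each under 20 reads and so outside the rule, which are given here after their values were seen. miR-503, which has the seed AGCAGCG and so differs from miR-424-5p within it by A8G, had 7 reads over the 6 libraries. The arms miR-450b-3p and miR-450c-3p had 5 reads each. miR-503 had no read in W4 or S4, and a count of 0 allows a level of up to 0.666 CPM (counts per 1000000 of the library total) in W4 and 0.565 CPM in S4. At this depth no difference could be detected for these sequences.

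Library totals ran between 4441416 and 5373146 counts. The 3 most abundant sequences (miR-143-3p with the epithelial pair miR-192 and miR-215) took 53.5% to 65.8% of the counts in weaning libraries and 67.5% to 72.8% in suckling libraries, lowest in W4. Levels are given in CPM, and a second scaling, the trimmed mean of M-values (TMM) of edgeR, sets the bulk of miRNAs level between libraries. Scaled to CPM, the median log2 ratio of all miRNAs with 50 or more reads in a pair was 0.28 for W1 over S1, 0.83 for W4 over S4 and 0.21 for W7 over S7. With TMM the medians were -0.04, -0.01 and -0.06. So W4 stood apart in its composition, and for that pair the scaling decided directions.

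The 7 members together held 6551 reads, between 0.0134% (W7) and 0.0322% (W1) of a library. miR-450b-5p was the most abundant member with 2480 reads, rank 113 among the known miRNAs. miR-450c-5p had 1161 reads, miR-542-3p 1111 and miR-450a 1045, and these 3 neighbours in the order differed by less than their standard deviations in either group. miR-424-5p followed with 640 reads, and the minor arms miR-542-5p and miR-424-3p came last with 82 and 32 reads. All of the mature sequences were 21 or 22 bases long, so no length scaling was needed to compare them.

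In W7 the cluster stood below S7. The sum of the 7 members was 134 CPM in W7 and 264 CPM in S7, which made W7 1.97-fold lower (95% interval 1.79 to 2.17). The log2 ratio of W7 over S7 was -0.98 (-1.12 to -0.84), and relative to the median of all miRNAs it was -1.19. With TMM the ratio was -1.25 (-1.39 to -1.11). These intervals are exact binomial intervals at 95%. They cover counting error only, since reads copied by PCR are not independent molecules and 1 pool per condition holds no spread between piglets. Because the RNA came from whole jejunal cross-sections, fewer cells of a type and less RNA per cell cannot be told apart.

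**Figure D1:**
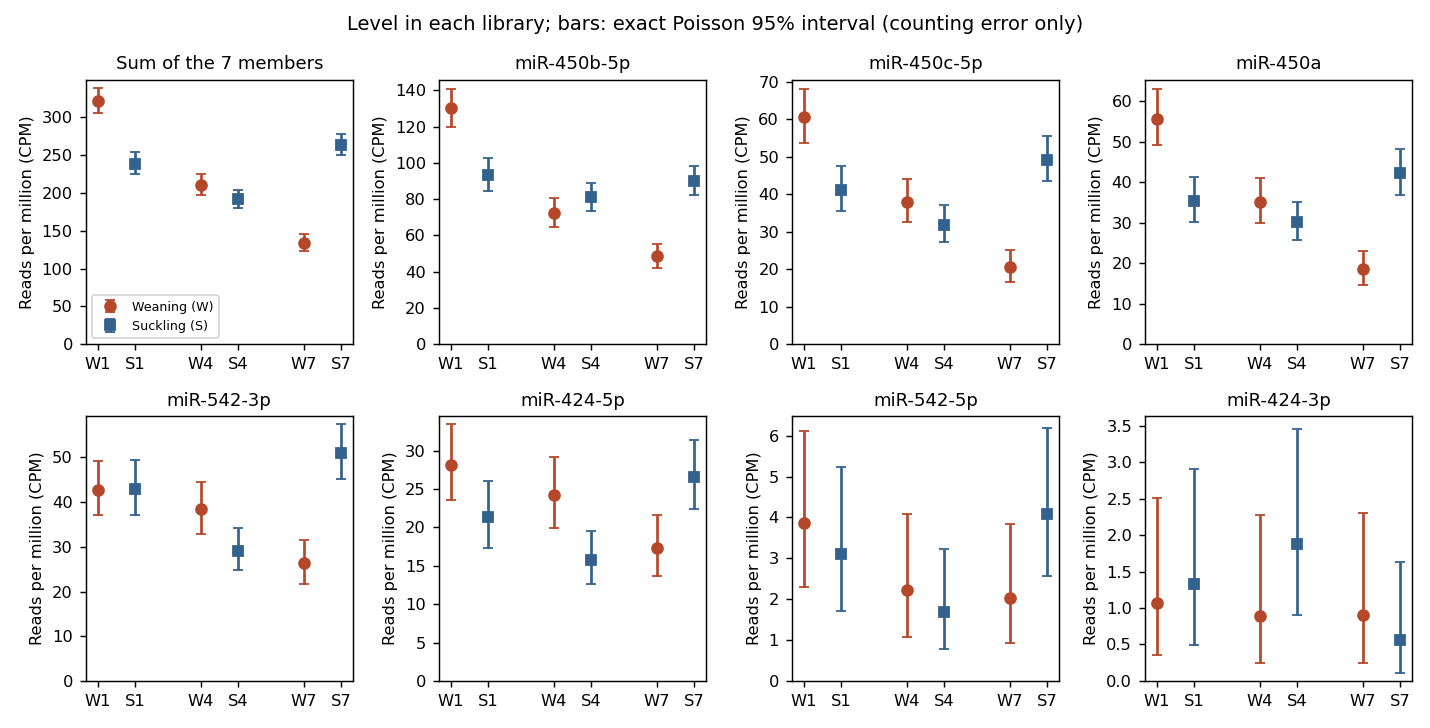
Level of the cluster sum and of each member in CPM (vertical axis, linear, from 0) in the weaning libraries (W, circles) and suckling libraries (S, squares) of each day; bars are exact Poisson 95% intervals and cover counting error only. The sum stands at 322, 211 and 134 CPM in W1, W4 and W7 and at 239, 192 and 264 CPM in S1, S4 and S7.

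Among the members with 50 or more reads in the pair, miR-450c-5p and miR-450a had the lowest ratios at day 7. miR-450c-5p had 281, 171 and 91 reads in W1, W4 and W7, which is 60.4, 38.0 and 20.5 CPM, against 185, 169 and 264 reads in S1, S4 and S7, which is 41.2, 31.8 and 49.1 CPM. W1 was its highest library and W7 its lowest, with W4 inside the suckling range by CPM. With TMM its W4 level (26.7) lay below the lowest suckling library (S4, 39.9). The log2 ratio of W7 over S7 was -1.26 (-1.62 to -0.91), and 0.844% of the 237 miRNAs with 50 or more reads in that pair had a lower one. miR-450a, its near twin, had 55.7, 35.1 and 18.5 CPM in W1, W4 and W7, against 35.4, 30.1 and 42.2 CPM in S1, S4 and S7. Its 6 libraries ran in the same order as for miR-450c-5p, with a ratio of -1.19 (-1.58 to -0.82) for W7 over S7.

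miR-450b-5p, which reads tell apart from that pair at 6 positions, had 605, 326 and 215 reads in W1, W4 and W7, against 420, 431 and 483 in S1, S4 and S7. In CPM this was 130, 72.4 and 48.4 in the weaning libraries, against 93.5, 81.1 and 89.9 in the suckling libraries. The suckling libraries lay close together, and W4 and W7 lay below all 3 of them while W1 lay above. The log2 ratio of W7 over S7 was -0.89 (-1.13 to -0.66).

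miR-542-3p, the main arm of its hairpin, had 42.8, 38.4 and 26.3 CPM in W1, W4 and W7, against 43.0, 29.2 and 51.0 CPM in S1, S4 and S7. W7 was the lowest of the 6 libraries and S7 the highest, but W1 and W4 lay within the suckling range by CPM. With TMM the W4 level of miR-542-3p (27.0) lay below the lowest suckling library (S4, 36.6). Its log2 ratio of W7 over S7 was -0.95 (-1.28 to -0.64). Its partner miR-542-5p had 18, 10 and 9 reads in W1, W4 and W7, against 14, 9 and 22 in S1, S4 and S7. The ratio of W7 over S7 was -1.01, with an interval from -2.32 to 0.16 that includes no difference, and -1.29 with TMM, with an interval from -2.59 to -0.11 that does not.

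miR-424-5p, the member with the miR-15/16 seed, had 131, 109 and 77 reads in W1, W4 and W7, which is 28.2, 24.2 and 17.3 CPM, against 96, 84 and 143 reads in S1, S4 and S7, which is 21.4, 15.8 and 26.6 CPM. By CPM its W7 level lay above S4, so W7 was within the suckling range, unlike for the other 4 members with 50 or more reads in the pair. With TMM its W7 level (15.5) lay below the lowest suckling library (S4, 19.8), as for those members. The log2 ratio of W7 over S7 was -0.62 (-1.04 to -0.21). miR-424-3p had between 3 and 10 reads in any library, and its ratio at day 7, 0.69, had an interval from -1.87 to 3.46.

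Of the 5 members with 50 or more reads in the pair, all 5 had a negative ratio at day 7 and 2, miR-450a and miR-450c-5p, were at least 2-fold lower in W7 than in S7. Of all 237 miRNAs measured in the pair, 3.80% were at least 2-fold lower. With TMM, 4 of the 5 members were at least 2-fold lower, all but miR-424-5p, beside 8.02% of all. The member median was -0.95 beside 0.21 over all miRNAs in CPM, and -1.23 beside -0.06 with TMM. In CPM, W7 lay below all 3 suckling libraries for 4 of the 5 members with 100 or more reads in all, where this held for 12.7% of 260 miRNAs. With TMM it held for all 5, beside 38.5% of all.

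**Figure D2:**
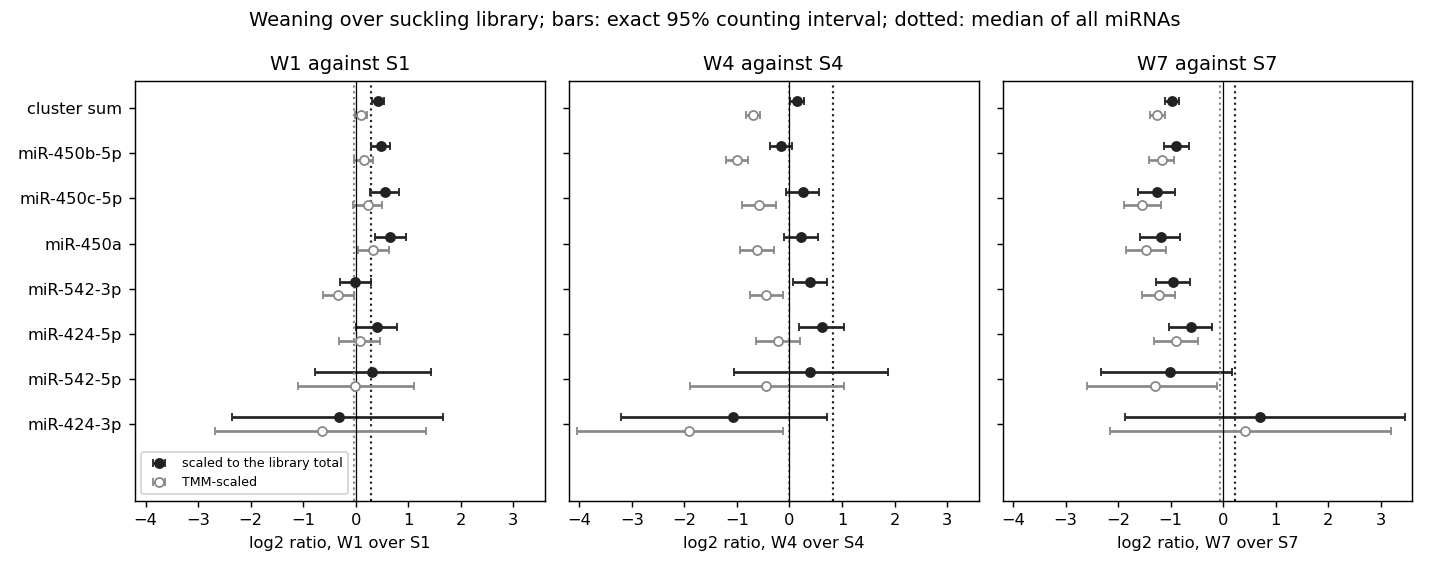
log2 ratio of each weaning library over the suckling library of the same day (horizontal axis) for the cluster sum and each member, scaled to the library total (filled) and with TMM (open); bars are exact 95% intervals for counting error and dotted lines are the medians of all miRNAs in the same scaling. At day 7 the sum lies at -0.98 scaled to the library total and at -1.25 with TMM, and at day 4 it lies above 0 in the first scaling (0.14) and below 0 in the second (-0.70).

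At day 4 the direction turned with the scaling. The sum was 211 CPM in W4 and 192 CPM in S4, a log2 ratio of 0.14 (0.01 to 0.27), but -0.70 (-0.83 to -0.57) with TMM and -0.69 relative to the median of all miRNAs. By CPM the members ran between -0.16 for miR-450b-5p and 0.61 for miR-424-5p, with a median of 0.26 beside 0.83 over all 244 miRNAs measured. With TMM all 5 measured members were negative, between -1.001 for miR-450b-5p and -0.22 for miR-424-5p. No member was at least 2-fold lower by CPM, where 2.87% of all miRNAs were. With TMM, 1 was (miR-450b-5p), where 9.02% of all miRNAs were. W4 lay below all 3 suckling libraries for 1 of 5 members by CPM, beside 5.00% of all, and for 5 of 5 with TMM, beside 34.6%.

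At day 1 the sum was 322 CPM in W1 and 239 CPM in S1, a log2 ratio of 0.43 (0.32 to 0.55). Relative to the median of all miRNAs it was 0.15, and with TMM 0.11, with an interval from -0.01 to 0.22 that includes no difference. The miR-450 members were highest, with CPM ratios of 0.65 for miR-450a, 0.55 for miR-450c-5p and 0.48 for miR-450b-5p. miR-424-5p stood at 0.40 and miR-542-3p at -0.01. With TMM miR-542-3p stood at -0.33 (-0.62 to -0.04). None of the 5 measured members was 2-fold different, where 6.11% of 229 miRNAs were higher in W1 by a fold of 2 or more and 2.62% were lower by as much. W1 lay above all 3 suckling libraries for 4 of 5 members by CPM, beside 54.2% of all, and for 3 of 5 with TMM, beside 23.5%.

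**Figure D3:**
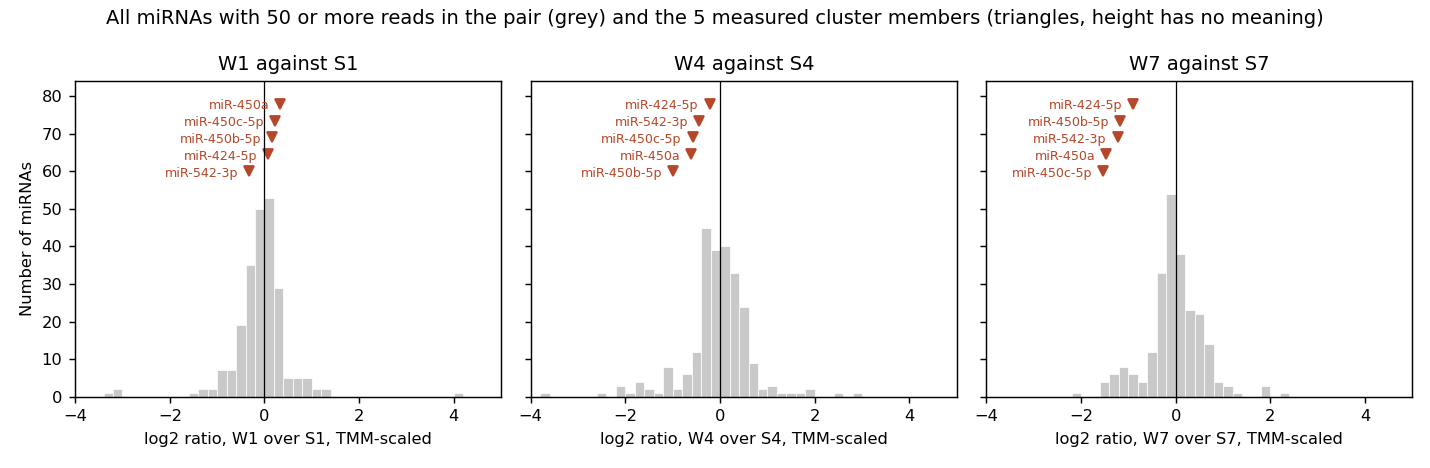
Number of miRNAs (vertical axis) by their TMM-scaled log2 ratio of weaning over suckling library (horizontal axis) for all miRNAs with 50 or more reads in the pair, with the 5 measured members as triangles placed above the bars. The members lie between -0.33 and 0.33 at day 1, between -1.001 and -0.22 at day 4, where all of them but miR-450b-5p lie above 0 when scaled to the library total, and between -1.54 and -0.89 at day 7.

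Along the weaning libraries the sum was lower on each later day. W4 stood below W1 by a log2 ratio of -0.61 (-0.73 to -0.49), W7 below W4 by -0.66 (-0.81 to -0.51), and W7 below W1 by -1.27 (-1.41 to -1.13). With TMM the 3 ratios were -1.07, -0.30 and -1.37, so the order held in both scalings while the sizes of the steps did not. Among suckling libraries S4 was lowest, with -0.32 (-0.44 to -0.19) for S4 over S1 and 0.46 (0.34 to 0.58) for S7 over S4. The highest weaning library was 2.41 times the lowest for the sum, and the highest suckling library 1.38 times the lowest. For the miR-450 members the weaning libraries spanned 2.69 to 3.02 times and the suckling libraries 1.15 to 1.54 times by CPM, and with TMM 2.89 to 3.25 and 1.16 to 1.34 times. For miR-424-5p (1.63 and 1.68 times) and miR-542-3p (1.62 and 1.75 times) the span was slightly narrower in the weaning than in the suckling libraries by CPM, but wider with TMM (1.75 and 1.46 times for miR-424-5p, 1.75 and 1.51 times for miR-542-3p). The day of a library and the piglets pooled in it cannot be told apart.

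Taking the libraries of a group as replicates, the sum averaged 222 ± 94.6 CPM in weaning libraries and 231 ± 36.5 CPM in suckling libraries (SD, n = 3 each), a difference smaller than either SD. With TMM the means were 193 ± 103 in weaning libraries and 272 ± 27.2 in suckling libraries (SD, n = 3 each), a difference larger than the SD of the suckling libraries and smaller than that of the weaning libraries. No member was called by edgeR's quasi-likelihood test between the groups (6 members tested, miR-424-3p being below the count filter, Benjamini-Hochberg adjusted p between 0.312 and 0.711 over 290 miRNAs). All 6 fitted log2 fold changes were negative, between -0.65 for miR-542-3p and -0.32 for miR-424-5p, with a median of -0.49. With library totals in place of TMM the members' median was -0.057 and 4 of 6 were negative, miR-424-5p standing at 0.13 and miR-450a at 0.02. The median of all miRNAs was then 0.48, against -0.0076 with TMM, so the members' median lay below it in both scalings. With library totals 115 miRNAs had an unadjusted edgeR p under 0.05, and no member did. With TMM, 0.00% of all miRNAs were called in either direction. At an unadjusted p under 0.05 edgeR with TMM had 1 member, miR-542-3p, which was lower, beside 8.97% of all miRNAs lower and 44 miRNAs in both directions. DESeq2 called 0 members and 10 miRNAs in all, 2.76% lower and 0.690% higher. Without W1, edgeR called 1 member, miR-450b-5p, lower (log2 fold change -1.09, adjusted p 0.0219) and 12 miRNAs in all, 3.15% lower.

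Each weaning library was then set against the 3 suckling libraries together, which vary in age, with their spread standing in for that of the single weaning library. For W7 no member passed at an adjusted p of 0.05, although miR-450b-5p and miR-450a came close. miR-450b-5p had a log2 fold change of -1.26 ± 0.19 (SE) with an edgeR adjusted p of 0.0517, and miR-450a -1.35 ± 0.23 with 0.0519. miR-450c-5p stood at -1.37 ± 0.26 with an edgeR adjusted p of 0.0646. Those of miR-542-3p, miR-424-5p and miR-542-5p were 0.151, 0.294 and 0.423 by edgeR. Of all 290 miRNAs, 1.38% were called lower and 0.345% higher. At an unadjusted p under 0.05, 4 of the 6 members were lower, beside 10.3% of all miRNAs. The SEs given with edgeR fold changes were computed back from the test's F statistic and are no separate measure of precision. Those of DESeq2 for W7 were wider, 0.28 for miR-450b-5p, 0.40 for miR-450a and 0.41 for miR-450c-5p.

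The call for W7 depended on the tool and on single suckling libraries. DESeq2 called 3 members lower in W7, beside 4.83% of all miRNAs called lower and 2.76% higher, with DESeq2 adjusted p of 0.000384 for miR-450b-5p and 0.0146 for both miR-450a and miR-450c-5p. It gave no adjusted p for miR-542-5p. edgeR called the same 3 members without S1, with adjusted p of 0.0227 for miR-450b-5p and 0.027 for the other pair, beside 5.57% of all miRNAs called lower. It called miR-450b-5p (0.0415) and miR-450a (0.0492) without S7, beside 3.85% of all called lower. Without S4 it called 0 members and 0 of all miRNAs, with 5 members and 48 miRNAs at an unadjusted p under 0.05.

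For W4, miR-450b-5p had a log2 fold change of -1.03 ± 0.19 (SE) and an edgeR adjusted p of 0.0699, and no member passed. Of all miRNAs 2.07% were called lower and 0.690% higher, and 4 members were lower at an unadjusted p under 0.05, beside 8.97% of all. DESeq2 called miR-450b-5p (adjusted p 0.00545, beside 3.45% of all called lower and 1.03% higher), as edgeR did without S1 (adjusted p 0.0446, beside 3.48% of all called lower). With library totals in place of TMM the members' median in W4 was -0.10, not -0.83, and none had an unadjusted p under 0.05. The median of all 290 miRNAs moved as well, from -0.00013 to 0.74, and 181 of them then had an unadjusted edgeR p under 0.05. So the members' median stayed below that of all miRNAs in both scalings. For W1 no member passed and none had an unadjusted p under 0.05, with edgeR fold changes between -0.21 for miR-542-3p and 0.35 for miR-450a. With library totals they ran between 0.06 for miR-542-3p, which so turned, and 0.63 for miR-450a, and 1 member, miR-450b-5p, was among 36 miRNAs at an unadjusted p under 0.05 (edgeR p 0.0477, adjusted p 0.397). The edgeR median of all miRNAs in W1 was 0.25 with library totals and -0.04 with TMM. With TMM edgeR and DESeq2 each called 0.00% of all miRNAs, and 16 had an unadjusted p under 0.05 by edgeR.

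The other miRNAs with the seed of miR-424-5p ran at other levels and with other ratios. miR-16, the family's most abundant member here, had 2839 CPM in W7 and 2881 CPM in S7, a log2 ratio of -0.02. At day 7 the 5 miRNAs ran between -0.21 for miR-15a and 0.16 for miR-497 by CPM, with a median of -0.10, and none was 2-fold different. With TMM all 5 were negative, with a median of -0.38. Set against the 3 suckling libraries, W7 gave edgeR fold changes between -0.37 and -0.13, with 0 of 5 called. At day 4 they ran between 0.89 and 1.32 by CPM, with a median of 1.06 beside 0.83 over all miRNAs, and 0.22 with TMM beside -0.01. At day 1 their median was -0.11 by CPM and -0.43 with TMM. A test of the difference between miR-424-5p and this family was not run.

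RefSeq placed 25 further known miRNAs of these libraries on chromosome X, outside the cluster. At day 7, 22 of them had 50 or more reads in the pair, with a median log2 ratio of 0.16 by CPM and -0.12 with TMM, close to that of all miRNAs. Of these, 1 was at least 2-fold lower in W7 than in S7, miR-374b-5p, with 11.5 CPM in W7, 24.9 CPM in S7 and a ratio of -1.12. The highest was miR-221-5p, with 25.2 CPM in W7, 13.0 CPM in S7 and a ratio of 0.95. edgeR called 0 of the 25 in W7 against the suckling libraries.

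In every library miR-424 gave mostly 5p reads and miR-542 mostly 3p reads. For miR-424 the 5p arm made up 96.3%, 96.5% and 95.1% of the reads of both arms in W1, W4 and W7, against 94.1%, 89.4% and 97.9% in S1, S4 and S7. For miR-542 the 3p arm prevailed, and the 5p arm made up 8.29%, 5.46% and 7.14% in W1, W4 and W7, against 6.76%, 5.49% and 7.43% in S1, S4 and S7. The 95% Wilson intervals of the weaning and the suckling library overlapped for both hairpins on each day. The widest gap was that of miR-424 at day 4, where the intervals ran from 91.3% to 98.6% in W4 and from 81.5% to 94.1% in S4 and each library's share lay outside the interval of the other. It rests on 4 reads of the 3p arm in W4 and 10 in S4. Since both arms come from 1 library, these shares need no scaling.

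**Figure D4:**
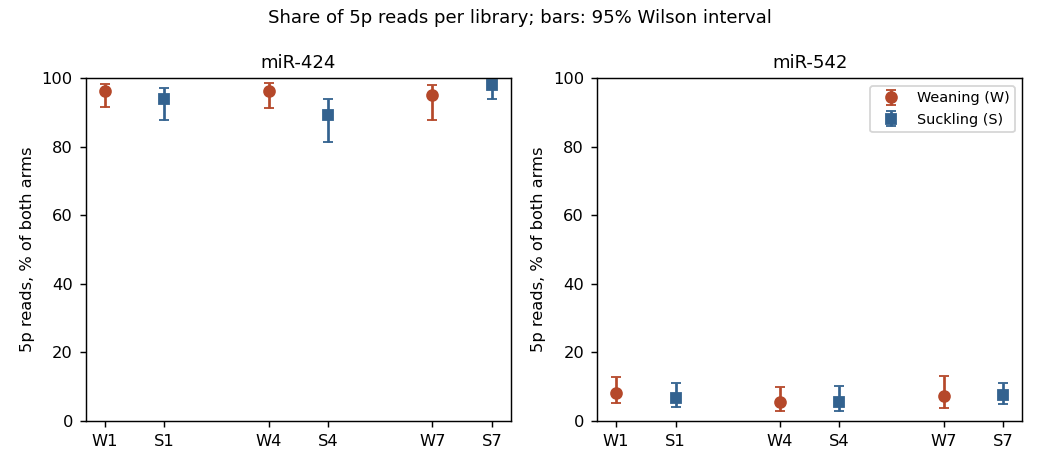
Share of 5p reads among the reads of both arms (vertical axis, percent) for the miR-424 and miR-542 hairpins in the weaning libraries (W, circles) and suckling libraries (S, squares) of each day; bars are 95% Wilson intervals for counting error. Over the 6 libraries the 5p share was 95.2% for miR-424 and 6.87% for miR-542.

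Shares of the cluster's reads, which need no scaling either, had 95% intervals that did not overlap within the day for 1 member at day 1, for 1 at day 4 and for none at day 7. miR-450b-5p made up 40.4%, 34.3% and 36.1% of the cluster's reads in W1, W4 and W7, against 39.1%, 42.3% and 34.1% in S1, S4 and S7. Its share at day 4 was lower in W4, with 95% Wilson intervals from 31.3% to 37.4% in W4 and from 39.3% to 45.4% in S4. The share of miR-542-3p at day 1 was 13.3% in W1 (11.7% to 15.1%) and 18.0% in S1 (15.8% to 20.4%). At day 7 the intervals of all 7 members overlapped, for miR-424-5p from 10.5% to 15.9% in W7 and from 8.64% to 11.8% in S7. Overlap does not mean equal shares. Each library's share lay outside the other's interval for miR-424-5p at days 4 and 7, miR-450a at day 1 and miR-542-3p at day 4. The same held at day 7 for miR-450c-5p and, on 4 and 3 reads, for miR-424-3p.

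The miRNAs whose course over the 6 libraries was most like that of the cluster sum were sought among 255 non-members with 100 or more reads. Likeness was the root mean square difference of log2(CPM + 0.5), each centred on its own mean. The 5 nearest were the candidate SSC14_3286 (0.240), miR-676-3p (0.241), miR-30b-5p (0.300), miR-331-3p (0.323) and miR-326 (0.323), where the median of all was 0.550. The measure also favours miRNAs that change little, so a shared course is not shown by it. SSC14_3286, miR-676-3p and miR-326 were highest in W1, as the sum was. miR-30b-5p and miR-331-3p were highest in W4 (516 and 74.8 CPM). SSC14_3286 lay between 2.70 CPM in W7 and 4.95 CPM in W1. The members of the cluster themselves, which are part of the sum, lay between 0.097 for miR-450c-5p and 0.570 for miR-424-3p. The nearness of a member is partly built in, above all for the abundant miR-450 members, so it cannot be set against that of non-members. Among the members, the minor arms miR-542-5p (0.248) and miR-424-3p lay farthest from the sum. They had 82 and 32 reads in all, so their distance also holds much counting error. miR-676-3p had 18.7, 15.8 and 11.5 CPM in W1, W4 and W7, against 14.5, 10.2 and 15.3 CPM in S1, S4 and S7.

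Marker miRNAs of the cell types in a jejunal cross-section also differed between the libraries, and their part in the result was not tested. All markers, 5 for epithelium, 6 for smooth muscle, 5 for mesenchyme, 2 for endothelium, 5 for leukocytes and 3 for red cells, had reads in all 6 libraries. Epithelial markers, led by miR-192 and miR-215, summed to between 225470 and 478223 CPM in weaning libraries and between 542545 and 578984 CPM in suckling libraries. At day 7 their summed log2 ratio of W7 over S7 was -0.82, with 4 of 5 lower. Smooth muscle markers summed to between 202043 and 330617 CPM in weaning libraries and between 159509 and 205237 CPM in suckling libraries, with a ratio of 1.05 at day 7. The ratios of W7 over S7 were 0.21 for mesenchyme, 0.04 for endothelium, 0.38 for leukocytes and -0.41 for red cells. With TMM they were -1.10 for epithelium, 0.78 for smooth muscle, -0.06 for mesenchyme, -0.23 for endothelium, 0.10 for leukocytes and -0.68 for red cells, where the cluster sum stood at -1.25. At day 4, where the cluster sum stood at 0.14 by CPM and -0.70 with TMM, the epithelial sum stood at -1.28 and -2.12. In the same order, smooth muscle stood at 0.66 and -0.17, mesenchyme at 1.09 and 0.25 and endothelium at 0.97 and 0.13. Leukocytes stood at 1.45 and 0.61 and red cells at 0.35 and -0.49.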

How the data were processed

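Small RNA of 15 to 32 bases from pooled jejunal RNA was sequenced in 6 libraries. Adapters and low-quality reads were removed by the authors, and the remaining reads were placed on an earlier pig assembly with Bowtie (0.12.2 in the submitters' processing notes), allowing no mismatch, and matched to known miRNAs. The values deposited by the authors are read counts per mature sequence and library; the sources used here do not say how the alignments were turned into counts. Sequences carry no names in the count tables, so a name was given where the 6 counts of a sequence equalled those of 1 name in the study's list of known miRNAs (20 or more reads). A sequence on several rows (54 sequences, no member) entered the library total once.

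CPM, ratios, exact binomial and Poisson intervals and Wilson intervals were computed with Python 3.11.15 and scipy 1.17.1. With 1 library per day and group, ratios have no p-value. Tests used edgeR 4.0.16 (quasi-likelihood, TMM, at least 10 reads in at least 3 libraries, Benjamini-Hochberg adjustment) in R 4.3.3, with DESeq2 1.42.0 as an alternative. The edgeR test was checked on simulated data. These gave all miRNAs the same dispersion and all libraries the same mean composition apart from the changed miRNAs, so they do not cover a library such as W4. Libraries of a group share no piglets but differ in age, so p-values measure the spread between these pools. Depth was 4441416 to 5373146 counts a library, so that members with under 50 reads in a pair were not counted as measured.

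The day in the labels numbers the libraries of both groups. Both groups came from the same litters and a shared day is no shared animal, so the fit with the day as a block is an alternative. All members were named, with the seed family of miR-424-5p, examples of other X-linked miRNAs (the highest and lowest ratio at day 7) and the 5 miRNAs nearest in course. Members, lists and markers were chosen with earlier results of these data known. Known sequences were matched to RefSeq (Sscrofa11.1) by the synonyms of their precursors, for 220 of 239. The gene order was that of the RefSeq start positions. No coordinates of the files' build were used, since it differs.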

Additional observations from a re-analysis of the deposited data

Results flagged for a closer look

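The ratio of weaning over suckling library, scaled to the library total, had opposite signs on different days, with counting intervals that leave out 0 on each day named. The cluster sum had log2 ratios of 0.43 at day 1, 0.14 at day 4 and -0.98 at day 7. miR-424-5p had 0.40, 0.61 and -0.62 on the same days. miR-450a had 0.65 at day 1 and -1.19 at day 7, miR-450b-5p 0.48 and -0.89, and miR-450c-5p 0.55 and -1.26. miR-542-3p had 0.40 at day 4 and -0.95 at day 7. With 1 library per day and group the difference between days was not tested. At day 1 the positive ratios were smaller with TMM, 0.11 for the sum, 0.33 for miR-450a, 0.23 for miR-450c-5p, 0.15 for miR-450b-5p and 0.08 for miR-424-5p. Of these, only the interval of miR-450a (0.04 to 0.62) then left out 0. miR-542-3p had a TMM ratio of -0.33 at day 1, and its interval (-0.62 to -0.04) left out 0 on the other side. The positive signs at day 4 turned with TMM, as given for the sum, miR-424-5p and miR-542-3p under the dependence on processing. Library composition and the marker sums moved between the same libraries, and their part was not tested.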

How the results depend on the processing

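The log2 ratio of the cluster sum with TMM, with DESeq2 size factors and without the 3 most abundant miRNAs in the total was 0.11, 0.14 and 0.16 for W1 over S1. For W4 over S4 it turned to -0.70, -0.68 and -0.63, and to -0.059 per clean read. For W7 over S7 it was -1.25, -1.25 and -1.19. For W4 over S4 the ratios of miR-424-5p (-0.22, -0.21, -0.16) and miR-542-3p (-0.44, -0.43, -0.38) turned too in these 3 scalings. Leaving miR-450a out of the sum gave -0.94 at day 7. At day 7, 4 members were at least 2-fold lower with TMM, DESeq2 size factors, clean reads or without the 3 most abundant. Of all 237 miRNAs, 19, 19, 13 and 15 were lower by as much in these scalings, and 8, 8, 11 and 9 higher. At a fold of 1.5 by CPM, 5 members were lower. The nearest of them to the threshold was miR-424-5p with -0.62, and 8.44% of the 237 miRNAs had a lower ratio. At day 4 a different member passed in each setting. miR-450b-5p was lower with TMM, beside 22 of 244 miRNAs. By CPM miR-424-5p was higher at a fold of 1.5, but its ratio of 0.61 lay below the median of all miRNAs, 0.83. Only 32.8% of the 244 miRNAs had a lower ratio than miR-424-5p. With no minimum of reads miR-424-3p was lower, on 4 reads in W4 and 10 in S4. At day 1 miR-450a was higher at a fold of 1.5 by CPM, and 87.3% of the 229 miRNAs measured had a lower ratio. The share of all miRNAs past the threshold is not given for the fold of 1.5 or for no minimum of reads. edgeR calls over all miRNAs for weaning against suckling numbered 1 with library totals, 10 with DESeq2 and 0 to 12 with a library left out, the members 0 to 1 (1 without W1). For W4 they numbered 8, but 152 with library totals (147 higher and 5 lower, against 2 and 6 with TMM), 13 with DESeq2 and 0 to 14 with a library left out (14 without S1, 0 without S4), the members 1 with DESeq2 and 0 to 1 (1 without S1). For W7 they numbered 5, but 16 with library totals (12 higher and 4 lower, against 1 and 4), 22 with DESeq2 and 0 to 24 with a library left out (24 without S1, 19 without S7, 0 without S4), the members 3 with DESeq2 and 0 to 3. With the day as replicate block edgeR called 0 miRNAs and 0 members between the groups, as without the block. The members' median log2 fold change was -0.59 with the block and -0.49 without it. Deviations of same-day libraries from their group means correlated at -0.0034, -0.208 and 0.0148 for days 1, 4 and 7 over 258 miRNAs. With 1 pool per day and group they cannot settle whether the day pairs the libraries, and the fit without the block was kept as the main one. The cause of these changes was not tested. Whether an interval left out 0 could turn on the scaling. Below 50 reads in a pair this held for miR-542-5p at day 7 and miR-424-3p at day 4. With more reads it held, for example, for miR-542-3p at day 1.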
